A study of Caenorhabditis elegans with 5 samples.

Results

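Nascent RNA of the set-32 single mutant was compared with that of wild type (WT) in young adult C. elegans, in 99764 windows of 1 kb out of 100270 in the deposited table. The 506 windows that the authors mark as misannotated were left out. The set compared was not chosen by value, but most medians and sums below keep only windows above a minimum level. Named windows were mostly picked by their level or ratio. The set-32 worms carried allele ok1457, and the WT worms were strain N2. Other genotypes are given beside the pair where they help to read it. These are the triple mutant, which carries met-2(n4256), set-25(ok5021) and set-32(ok1457) together, the double mutant of the same met-2 and set-25 alleles, called met-2 set-25, and hrde-1(tm1200). All were grown at 19 °C on E. coli OP50, and whole synchronized adults were used, so the RNA mixes germline and somatic tissue. For pre-mRNA-seq, RNA was recovered from chromatin bound by the elongating form of RNA polymerase II, whose tail repeat is phosphorylated at serine 2. Values are RPKM, which for a 1 kb window is the read count scaled to a common library total.

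SET-32 is a histone methyltransferase of the nuclear RNAi pathway, in which small RNAs bound by the germline Argonaute HRDE-1 direct silencing at matching chromatin. Trimethylation of histone H3 at lysine 9 (H3K9me3) is a mark of heterochromatin, the compact and mostly silent part of the genome. MET-2 and SET-25 are the other H3K9 methyltransferases studied, and in C. elegans they act on heterochromatin widely, including the repeat-rich chromosome arms.

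Each genotype had 1 library, so no difference below has a replicate check, no test across windows is given, and intervals are 95% exact counting intervals, which cover counting error only. The set-32 library held 556568 reads and the WT library 1096412, as recovered from the size of the smallest steps of the values. A read was worth 1.80 RPKM in set-32 and 0.912 RPKM in WT. A window at 20 RPKM therefore rested on 11.1 reads in set-32 and on 21.9 reads in WT. By their codes, set-32 and the triple mutant belong to a library set of their own, apart from the other 3 libraries, so an effect of the allele cannot be told apart from an effect of the set in this pair. The 13 windows of the ribosomal RNA (rRNA) genes at the right end of chromosome I, taken as such from their level and place, held 27.9% of the set-32 library and 4.66% of the WT library. The triple mutant, of the same set as set-32, had 37.4% there.

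Reads in these windows lower all other values of a library, so values are given as deposited and also rescaled. In the 31049 windows that were in none of the 8 list columns of the table and averaged at least 5 RPKM over the pair, the median of WT over set-32 was 1.52, and set-32 values were multiplied by this factor. Rescaling assumes that the typical unlisted window did not differ, which these libraries cannot test. Ratios are printed as log2 after adding 1 RPKM to each value unless a plain ratio of RPKM is named.

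At its own locus set-32 was low, though few reads lie there. The 2 windows that hold the ok1457 interval, chromosome I 9519001 to 9521000, had 2.70 RPKM in set-32 and 10.5 RPKM in WT, from 3 and 23 reads. The ratio was 0.257 as deposited (0.0494 to 0.850) and 0.391 rescaled (0.0752 to 1.29). Over the 5 libraries the mean in RPKM was 2.70 for set-32, 3.09 for the triple mutant, 8.96 for met-2 set-25, 10.3 for hrde-1 and 10.5 for WT. Both libraries with ok1457 were thus the lowest, while the rescaled interval of set-32 against WT still reached past 1. To the left, 9517001 to 9518000 had 14.4 RPKM in set-32 and 24.6 RPKM in WT, and 9518001 to 9519000 had 7.19 RPKM in set-32 and 23.7 RPKM in WT. To the right, 9521001 to 9522000 had 0 reads in set-32 and 1 in WT, and the next window had none in either.

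Of other places named in the study's oligo list, oma-1, which encodes a zinc finger protein of oocytes, was lower in set-32. Its 2 windows on chromosome IV, 8889001 to 8891000, had 32.3 and 48.5 RPKM in set-32 and 87.6 and 100.3 RPKM in WT. The ratio of their sums was 0.430 as deposited and 0.655 rescaled (0.463 to 0.908). The triple mutant was lower still, with 18.5 and 9.26 RPKM, against 70.2 and 62.7 RPKM in met-2 set-25. The window of tba-1, an alpha-tubulin gene, at chromosome I 9786001 to 9787000, had 64.7 RPKM in set-32 and 117 RPKM in WT, a rescaled ratio of 0.843 whose interval held 1 (0.566 to 1.23). The 2 windows of a control region for chromatin immunoprecipitation, on chromosome II at 6708001 to 6710000, held 0 reads in set-32, which allows up to 3, and 1 in WT, so no difference was detectable at this depth.

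Over the genome, set-32 values lay below WT as deposited and around WT after rescaling. Reads were present in both libraries in 53650 windows, only in set-32 in 4760, only in WT in 15898 and in neither in 25456. Outside the rRNA genes, 32896 windows averaged at least 5 RPKM over the pair. Their median level was 10.8 RPKM in set-32 and 16.4 RPKM in WT. The median log2 ratio was -0.53 as deposited and 0.03 rescaled, with rescaled quartiles of -0.51 and 0.54. The set-32 value was above WT in 23.2% of these windows as deposited and in 50.8% rescaled. The ratio of the summed levels was 1.14 after rescaling, so the sum moved up where the median did not.

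**Figure D1:**
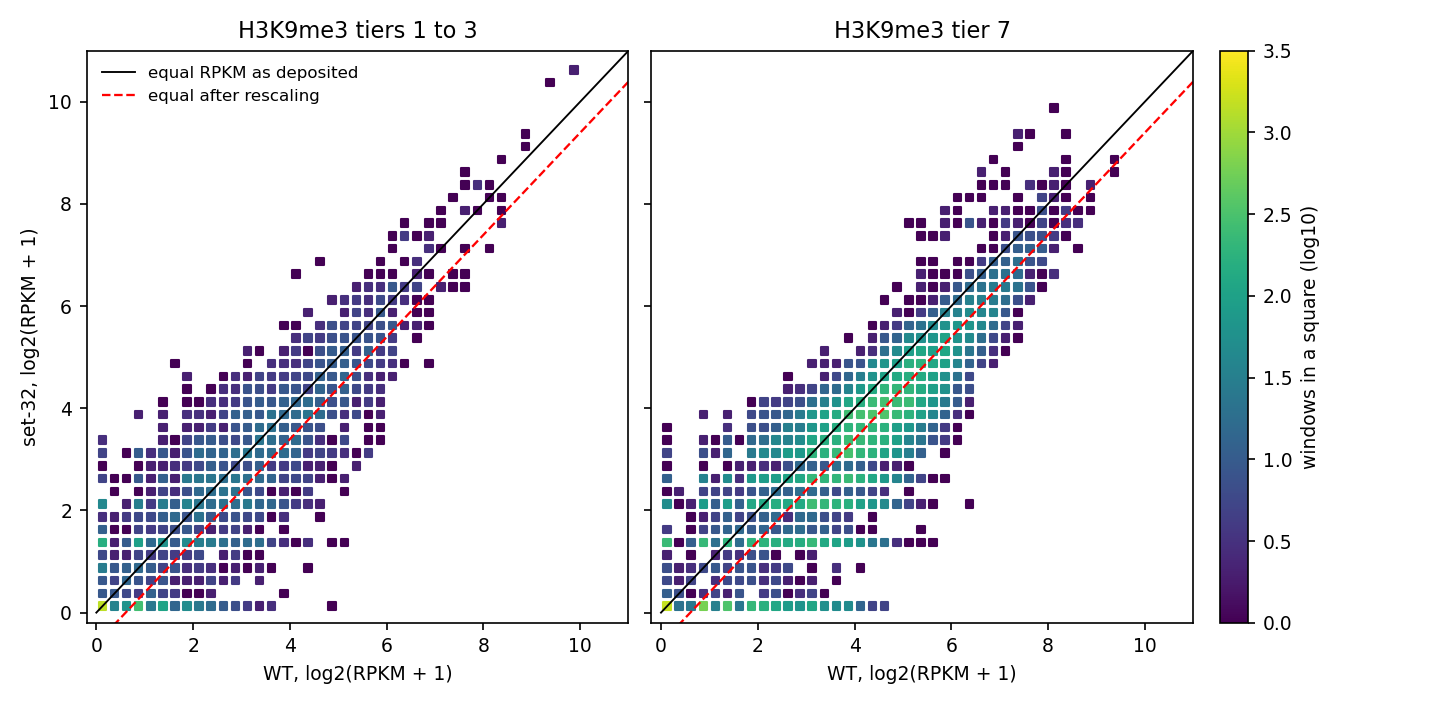
Level of 1 kb windows in set-32 (vertical axis) and WT (horizontal axis), both as log2(RPKM + 1) as deposited. The left panel holds the 5031 windows of H3K9me3 tiers 1 to 3 and the right panel the 23817 of tier 7, with each square coloured by its number of windows. Tier 7 is centred close to the dashed line of equal rescaled values, while tiers 1 to 3 lie between it and the solid line of equal deposited values.

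To be called higher or lower, a window needed a ratio of 2 or more with 1 RPKM added, and at least 20 RPKM in one of the libraries. As deposited, 401 of 14172 windows that could be called were higher in set-32 (2.83%) and 4257 were lower (30.0%). Rescaled, 1942 of 16650 were higher (11.7%) and 1351 were lower (8.11%). Rescaling multiplies every set-32 value by the same 1.52, so no call could turn from one direction to the other. By the same arithmetic the 401 deposited higher calls stayed called, and the 1351 rescaled lower calls were already lower as deposited. These 401 and 1351 windows make up the strict lists used below. That they hold under both scalings is no check on them. The balance of higher and lower calls thus turned with the scaling, and no direction over the genome is read from it. Scaling instead to library totals with the rRNA genes taken out (factor 1.33) gave 1183 higher and 1975 lower calls and put the X median at -0.02 and tier 7 at -0.25. The sign of a single median can thus depend on the scaling, as it did for X, while tier 7 was negative under each scaling.

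The strict lists differed in make-up, but also in the ratio they had to pass. The higher list is the deposited calls and the lower list is the rescaled calls. On the rescaled scale the higher windows therefore passed a larger ratio than the lower ones. Of the 401 higher windows, 13 were the rRNA genes. Among the other 388, 53.9% had whole reads in both libraries, against 84.3% of the 1351 lower windows and 82.6% of all windows that could be called. Fractions arise where a read matched several places and was divided among them, so the higher windows more often held reads shared with other copies. Most called windows stood alone: 84.5% of the 388 and 80.5% of the 1351 had no neighbour called the same way. Runs of at least 3 adjacent windows numbered 6 in the higher direction (20 of the 388 windows) and 20 in the lower (71 of the 1351). The share of windows in runs was thus similar in both directions.

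The clearest order among windows followed the tier of H3K9me3. The table gives each window a tier, which from the column's name is taken to grade H3K9me3. How it was set is not given in the sources used here. Low tiers held the listed windows: 99.0% of tier 1, 98.8% of tier 2 and 77.7% of tier 3 were in at least 1 list, against 3.61% of tier 4, 0.0835% of tier 5 and fewer of tiers 6 and 7. The lists are of nuclear RNAi targets and of windows that lost H3K9me3 in a mutant, so low tiers stand for windows rich in this mark.

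Set-32 stood highest against WT in tier 1 and lowest in tier 7, with each tier between them in order. The rescaled median log2 ratio was 0.62 in tier 1 (61 windows of a mean of at least 5 RPKM), 0.52 in tier 2 (356), 0.31 in tier 3 (1179), 0.23 in tier 4 (4433), 0.16 in tier 5 (4334), 0.09 in tier 6 (5528) and -0.07 in tier 7 (17005). As deposited these medians were 0.02, -0.05, -0.26, -0.34, -0.38, -0.48 and -0.64. A single factor for all set-32 values leaves the spacing between tiers nearly unchanged by construction. The typical windows of tiers 1 and 2 were near equal in set-32 and WT as deposited. Quartiles were wide beside these steps, at -0.21 and 0.96 in tiers 1 to 3 together and at -0.55 and 0.38 in tier 7. The difference of the medians, tiers 1 to 3 minus tier 7, was 0.45.

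Sums gave the same order from tiers 1 to 3 down to tier 7. The summed level in set-32 over that in WT was 1.50 rescaled in tiers 1 to 3 (1.47 to 1.52), 1.41 in tier 4, 1.30 in tier 5, 1.17 in tier 6 and 1.01 in tier 7 (1.01 to 1.02). Taken singly, tiers 1, 2 and 3 had 1.57, 1.44 and 1.51 rescaled, so tier 3 stood above tier 2 in the sums. All these are ratios of RPKM with nothing added. Of the windows that could be called as deposited, 9.30% were higher in tiers 1 to 3 (64 of 688), against 0.904% in tier 7 (78 of 8627) and 2.83% over all windows. Lower calls after rescaling took 6.25% of tiers 1 to 3 (53 of 848) and 8.49% of tier 7 (827 of 9744), against 8.11% over all. Lower calls as deposited took 17.3% of tiers 1 to 3 and 32.2% of tier 7, against 30.0% over all. Higher calls after rescaling took 29.8% of tiers 1 to 3 and 5.73% of tier 7, against 11.7% over all. Under both scalings, tiers 1 to 3 thus had a larger share of higher calls and a smaller share of lower calls than tier 7.

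**Figure D2:**
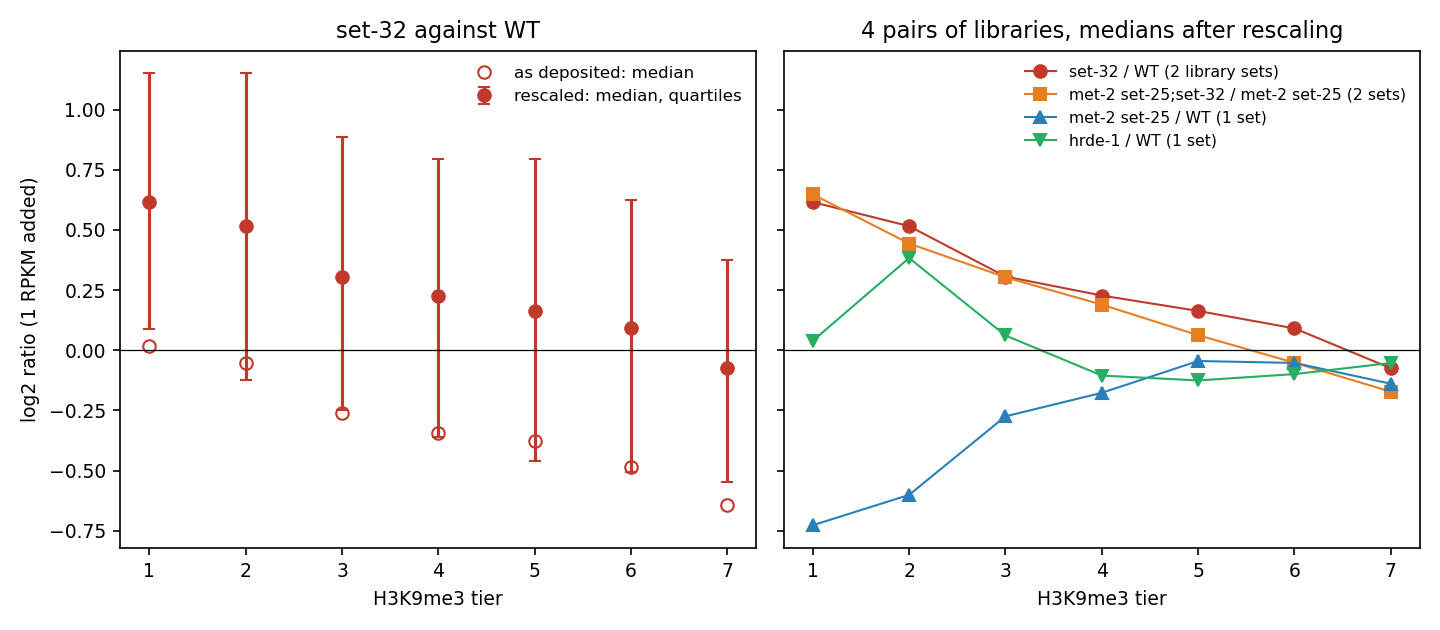
Log2 ratio by H3K9me3 tier in windows of a mean of at least 5 RPKM over set-32 and WT, without rRNA genes. On the left, filled points with bars give the median and quartiles of set-32 against WT rescaled and open points the median as deposited. On the right, medians of 4 pairs of libraries after rescaling each pair: set-32 against WT falls with tier, at 0.62 in tier 1 and -0.07 in tier 7, and the triple mutant against met-2 set-25 follows the same order.

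The same order appeared in the other pair of libraries that crosses the 2 library sets. Triple mutant values over met-2 set-25 values, rescaled by 1.85 in the same manner, had medians of 0.65, 0.44, 0.30, 0.19, 0.06, -0.05 and -0.17 in tiers 1 to 7 over the same windows. This pair shares no library with set-32 and WT, but it adds the same allele and crosses the same sets. Pairs within the WT set did not run in this order: met-2 set-25 over WT had -0.73 in tier 1 and -0.14 in tier 7, and hrde-1 over WT had 0.04 in tier 1, 0.38 in tier 2 and -0.05 in tier 7. Both share the WT library with set-32 against WT. The windows were kept by the mean of set-32 and WT, so their choice drew on WT but not on met-2 set-25 or hrde-1. Over all windows used, the rescaled medians were -0.12 for met-2 set-25 over WT and -0.07 for hrde-1 over WT. How far this choice shaped their medians by tier was not tested. Whether the order by tier follows the set-32 allele or the library set was not tested, since no library of one set carries the genotype of the other.

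The order was also read at a fixed level of nascent RNA. Windows were classed by their level in hrde-1, a library on neither side of the ratio. Over all windows of each hrde-1 class the rescaled median was between -0.04 and 0.00 up to 100 RPKM and was 0.25 in the 895 windows above 100 RPKM outside the rRNA genes. Classes by the WT value, which share WT with the ratio, had medians of -0.56 over 0 to 2 RPKM, -0.09 over 10 to 20, -0.13 over 20 to 50 and over 50 to 100, and 0.05 in the 995 windows above 100 RPKM. Windows of very high level were thus higher in set-32 than windows of middle level by either class.

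Within a level class the tiers kept their order for most levels. At 10 to 20 RPKM in hrde-1 the rescaled median was 0.36 in tiers 1 to 3 (496 windows), 0.11 in tier 4 (1494), 0.04 in tiers 5 and 6 (3545) and -0.10 in tier 7 (6211). At 50 to 100 RPKM it was 0.61 in tiers 1 to 3 (193 windows), 0.29 in tier 4 (261), 0.12 in tiers 5 and 6 (421) and -0.11 in tier 7 (1312). Above 100 RPKM the top class was tier 4 with 0.84 (144 windows), ahead of 0.62 in tiers 1 to 3 (95), 0.27 in tiers 5 and 6 (223) and 0.10 in tier 7 (433). Tiers 1 to 3 also hold targets of HRDE-1, for which hrde-1 is no neutral yardstick of level.

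**Figure D3:**
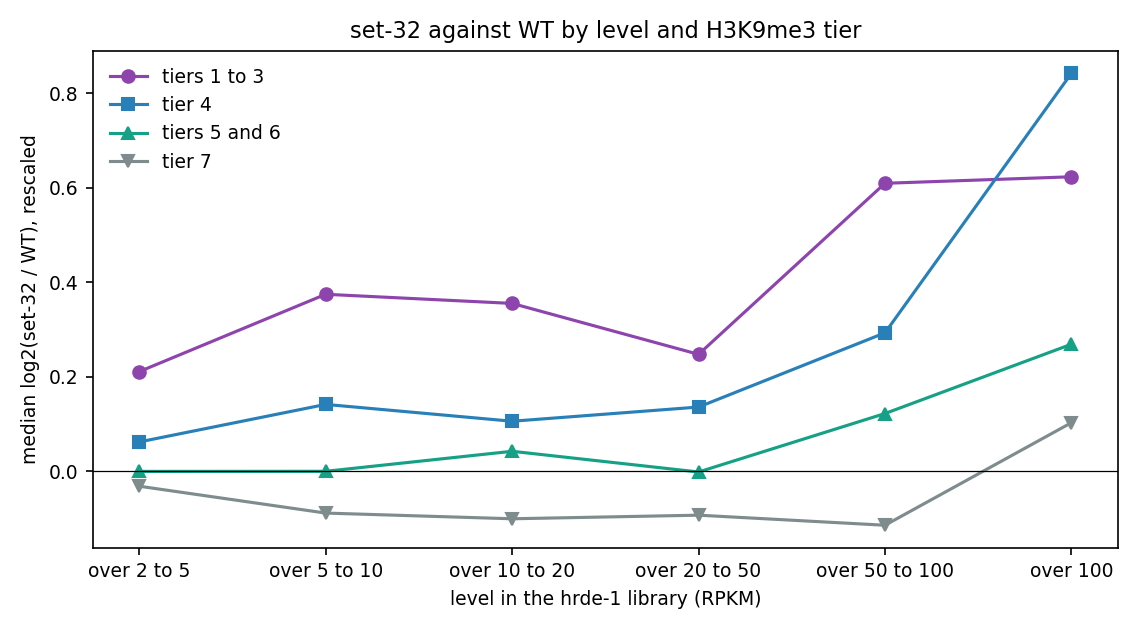
Median rescaled log2 ratio of set-32 over WT (vertical axis) by level in hrde-1 (horizontal axis, RPKM classes low to high) in 4 groups of H3K9me3 tiers. From 2 to 100 RPKM the lines keep the tier order, with tiers 1 to 3 on top, and above 100 RPKM tier 4 reaches 0.84.

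The table marks windows that lost H3K9me3 in set-32 in each of 2 columns, set32_K9_1 and set32_K9_2. Both columns marked 782 windows, the first alone 338 and the second alone 323, so 69.8% of the first column and 70.8% of the second were marked in both. Of the 782, 12 were rRNA gene windows, and 719 of the other 770 lay in tiers 1 to 3. Chromosome V held 381 of the 770, and 45 were on X. H3K9me3 itself was not analysed here, and the marks are used as deposited.

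Over all 770 marked windows the median level was 7.19 RPKM in set-32 and 7.30 RPKM in WT, above the medians of all windows, which were 1.80 RPKM in set-32 and 1.82 RPKM in WT. Of the 770, 98 had no read in either library. In the 459 that averaged at least 5 RPKM over the pair, the median log2 ratio was -0.08 as deposited and 0.49 rescaled. It was 0.33 rescaled for the first column alone (142 windows), 0.31 for the second alone (105) and 0.00 for windows marked in neither (32190). Of marked windows that could be called as deposited, 24 of 232 were higher in set-32 (10.3%), against 2.83% over all windows. Rescaled, 18 of 288 were lower (6.25%), against 8.11% over all.

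Within tiers, marked and unmarked windows lay closer together. In tier 3, windows marked in both columns had a rescaled median of 0.34 (171 windows) and unmarked ones 0.31 (884). In tier 4 the medians were 0.26 (38) and 0.23 (4344), and in tier 2 they were 0.62 (203) and 0.38 (88). In tier 1 the order turned, with 0.66 in 47 marked windows and 1.55 in 7 unmarked ones, which include 3 windows of a run near the right end of chromosome I. Over tiers 1 to 3, marked minus unmarked was 0.51 minus 0.32, a difference of 0.19, and the ratio of sums ran the other way, 1.39 in marked and 1.54 in unmarked windows. The direction of marked against unmarked windows at a fixed tier thus differed between the median and the sum.

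Known targets of germline nuclear RNAi were looked at inside and outside the marks. GRTS windows are targets silenced in transcription through HRDE-1, and GRH windows are targets whose H3K9me3 depends on it. Among GRTS windows, 88 were marked in both columns, with a rescaled median of 0.67 (58 windows of a mean of at least 5 RPKM), and 103 were not, with 0.37 (42). Among GRH windows the medians were 0.39 in 102 marked windows (92 used) and 0.41 in 113 others (87 used). Marked windows outside GRTS and GRH, 592 in number, had 0.51 (318 used). The rescaled medians of tiers 1 to 3 were between 0.31 and 0.62. As deposited, set-32 over WT had medians of 0.08 in marked and -0.17 in other GRTS windows. It had -0.19 in marked and -0.14 in other GRH windows, and -0.04 in marked windows outside both lists. The sign of most of these medians thus depended on the scaling. In the same windows, hrde-1 over WT had rescaled medians of 2.30 and 2.01 in GRTS and of 0.42 and 0.56 in GRH, marked windows first.

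Single marked windows differed in either direction. The 5 largest ratios among marked windows that could be called were all in tiers 1 to 3, and 4 of them were on chromosome V. There, 18311001 to 18312000 had 23.4 RPKM in set-32 and 2.74 RPKM in WT, and 795001 to 797000 averaged 35.0 RPKM in set-32 and 8.21 RPKM in WT. On chromosome II, 2521001 to 2522000 had 21.6 RPKM in set-32 and 5.02 RPKM in WT, from 12 and 6 reads. Few reads carry these ratios, and the interval of the last one was 2.08 to 19.5 rescaled.

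The 5 smallest ratios were on chromosomes I, II and IV. At IV 2898001 to 2899000, inside a run described further on, set-32 had 7.19 RPKM and WT 51.1 RPKM. The 3 windows on II, starting at 1932001, 1941001 and 1955001, had 10.8, 8.09 and 2.70 RPKM in set-32 and 55.6, 46.1 and 21.9 RPKM in WT. Met-2 set-25 was low at these windows as well, with 10.5, 7.46 and 1.49 RPKM, as was the triple mutant with 9.26, 4.63 and 0 RPKM, so mutants of both library sets lay below WT there. In hrde-1 these windows had 55.99, 76.4 and 26.3 RPKM, at or above WT. At I 13955001 to 13956000, in tier 1, the level was 7.19 RPKM in set-32 and 47.4 RPKM in WT.

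The marked windows of highest WT level lay on chromosomes I, II and V and did not move together. At II 1148001 to 1151000 the level was 363 RPKM in set-32 and 305 RPKM in WT (rescaled ratio 1.81, 1.64 to 2.01). At V 1202001 to 1205000, 3 windows with divided reads, it was 104 RPKM in set-32 and 218 RPKM in WT (0.725, 0.610 to 0.856). V 17088001 to 17089000 had 240 RPKM in set-32 and 186 RPKM in WT, and I 1836001 to 1837000 had 84.5 RPKM in set-32 and 134 RPKM in WT. Only the rescaled interval of the last of these held 1 (0.675 to 1.34).

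By chromosome, X stood above the autosomes. The rescaled median was 0.15 on X (3364 windows), 0.07 on V, 0.03 on IV, 0.00 on I and -0.00 on II and III, and 0.00 over all autosomal windows (29532). As deposited, X had -0.41 and the autosomes -0.54. The triple mutant over met-2 set-25 had 0.12 on X and -0.06 over the autosomes. The summed level on X was 1.33 of WT rescaled (1.31 to 1.35), against 1.13 on the autosomes (1.12 to 1.13).

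X and autosomes differ in their tiers, and within tiers 4 to 7 the X median did not stand above. Only 5.80% of X windows used were in tier 7, against 56.9% of autosomal ones. In tier 4 the rescaled median was 0.22 on X (802 windows) and 0.23 on autosomes (3631), in tier 5 it was 0.15 (1137) and 0.18 (3197), in tier 6 it was 0.00 (1083) and 0.09 (4445), and in tier 7 it was -0.11 (195) and -0.07 (16810). Tiers 2 and 3 still had X above, with 0.63 (37) and 0.38 (109) on X and 0.51 (319) and 0.30 (1070) on autosomes. Signs within tiers were not stable, since in windows of a mean of at least 20 RPKM X minus autosomes was -0.07 in tier 3, 0.13 in tier 4, 0.01 in tier 5 and -0.65 in tier 7. Sums had X above in tier 4 as well, 1.53 against 1.38 rescaled. This split by tier was chosen after seeing the chromosome medians. Above 100 RPKM in hrde-1, without a split by tier, the rescaled median was 0.82 in 74 windows of X and 0.21 in 821 autosomal windows. In that class, over all chromosomes, tier 4 had 0.84 and tier 7 had 0.10. Whether this gap between X and autosomes holds within tiers was not tested.

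**Figure D4:**
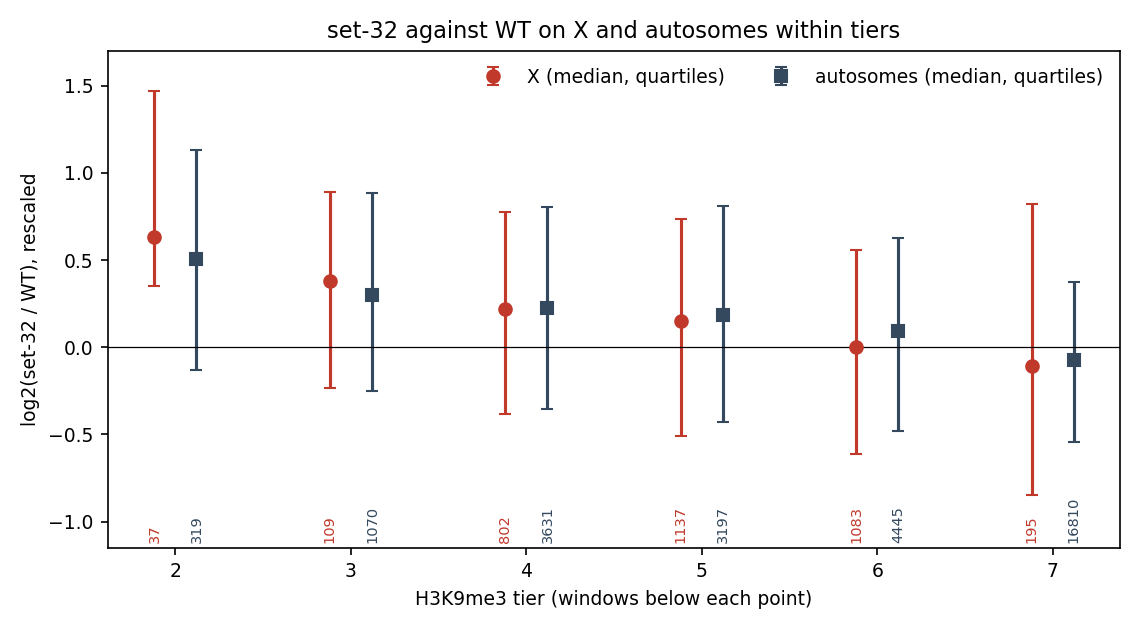
Rescaled log2 ratio of set-32 over WT on X and on autosomes within H3K9me3 tiers 2 to 7, as medians (points) and quartiles (bars), with the number of windows below. Tier 1 is left out, since X had 1 window there. X lies at or below the autosomes in tiers 4 to 7 and above them in tiers 2 and 3.

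Arms and centres of the autosomes differed by less than the tiers did. Arms, the outer 30% on either side, had a rescaled median of 0.06 (16611 windows) and centres of -0.00 (12921). By part of an autosome, medians lay between -0.04 at the centre of I and 0.11 on the left arm of IV and the right arm of I. Within tiers the order of arms and centres was mixed. Centres were above arms in tier 4 (0.30 and 0.21), tier 5 (0.24 and 0.15) and tier 6 (0.12 and 0.06). Arms were above centres in tier 1 (0.65 and 0.28, with 6 windows at centres), tier 2 (0.52 and 0.36), tier 3 (0.30 and 0.28) and tier 7 (-0.05 and -0.09).

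Most windows with the largest ratios were isolated, outside the marks and in tiers 4 to 7, and they lay on I, II and V. On II, 11167001 to 11168000 had 268 RPKM in set-32 and 58.4 RPKM in WT, and 7183001 to 7184000 had 271 RPKM in set-32 and 57.5 RPKM in WT. On V, 8349001 to 8350000 had 363 RPKM in set-32 and 74.8 RPKM in WT, and 12491001 to 12492000 had 192 RPKM in set-32 and 37.9 RPKM in WT. On I, 8259001 to 8260000 had 183 RPKM in set-32 and 33.8 RPKM in WT, and 2410001 to 2411000 had 217 RPKM in set-32 and 41.6 RPKM in WT. The rescaled ratio of these 6 windows was between 6.98 and 8.26.

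These 6 windows were higher still in the triple mutant. It had 997 and 815 RPKM at the windows of II, against 124 and 109 RPKM in met-2 set-25. At those of V it had 917 and 517 RPKM, against 139 and 73.9 RPKM, and at those of I 466 and 510 RPKM, against 55.2 and 73.3 RPKM. The rescaled ratio of triple mutant to met-2 set-25 was between 12.2 and 15.6, beside 12.05 in the rRNA genes, where set-32 over WT was 9.11. The largest ratios of III, IV and X, at III 5653001 to 5654000, IV 11474001 to 11475000 and X 15619001 to 15620000, were of this kind as well, with rescaled set-32 to WT ratios of 6.40, 6.05 and 4.50 and triple mutant to met-2 set-25 ratios of 11.4, 14.1 and 8.90. A run of 3 windows on V, 11175001 to 11178000, all with divided reads, had 221 RPKM in set-32 and 58.0 RPKM in WT, with 585 RPKM for the triple mutant and 89.6 RPKM for met-2 set-25. At all these places the higher values went with the library set, with the set-32 allele that both its libraries carry, and with the rRNA share. Library set and allele cannot be told apart here, and the part of each was not tested. The window I 14629001 to 14630000, in tier 4, had 55.7 RPKM in set-32 and 10.9 RPKM in WT, beside 49.4 RPKM for the triple mutant and 14.9 RPKM for met-2 set-25.

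A group of 6 called windows, 4 on I and 2 on II, had values within 10% of a common member in every library. They had 221 to 223 RPKM in set-32 and 50.3 to 55.3 RPKM in WT, with 235 RPKM for the triple mutant and 56.2 to 59.1 RPKM for met-2 set-25. Whether they share divided reads was not tested, and they are not read as 6 separate places.

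At other blocks set-32 had the highest level of the 5 libraries. At V 1697001 to 1700000, in tiers 2 and 3, the 3 windows had 23.4, 119 and 89.8 RPKM in set-32 and 2.74, 21.9 and 16.9 RPKM in WT. The middle window was marked in both columns. Set-32 averaged 77.3 RPKM, the triple mutant 4.12, met-2 set-25 6.22, hrde-1 45.9 and WT 13.8, and the rescaled ratio of set-32 to WT was 8.50 (5.96 to 12.04). The single mutants set-32 and hrde-1, of different library sets, were the 2 highest here.

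On the same arm, V 794001 to 798000, in tiers 1 and 2 with 2 marked windows, averaged 35.7 RPKM for set-32, 25.2 for the triple mutant, 3.12 for met-2 set-25, 19.7 for hrde-1 and 10.6 for WT. Its 4 windows, named as a run of higher calls, had 25.2, 34.1, 35.9 and 47.6 RPKM in set-32 and 9.12, 9.12, 7.30 and 16.9 RPKM in WT. The triple mutant was above met-2 set-25 too, with a rescaled ratio of 14.99 beside 5.12 for set-32 to WT, and met-2 set-25 was the lowest library. The window V 8080001 to 8081000, in tier 5, had 68.3 RPKM in set-32 and 8.21 RPKM in WT, the largest rescaled ratio among called windows with at least 50 RPKM in a library (12.7, 6.02 to 29.8).

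Near the right end of I, 14885001 to 14889000, in tiers 1 and 2 and unmarked, 4 windows with divided reads were even in level. They had 157, 149, 167 and 163 RPKM in set-32 and 76.7, 71.4, 77.1 and 76.7 RPKM in WT. Set-32 averaged 159 RPKM, the triple mutant 107, met-2 set-25 75.3, hrde-1 70.1 and WT 75.4. The 3 libraries of the WT set lay close together, and both libraries of the other set lay above them. On X, 1489001 to 1492000 averaged 46.7 RPKM for set-32, 21.6 for the triple mutant, 38.8 for met-2 set-25, 28.5 for hrde-1 and 15.8 for WT, so that WT was the lowest of the 5.

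The highest windows outside the rRNA genes were 5 neighbours on IV, 8261001 to 8266000, in tiers 4 and 5. Their levels were 1752 to 2454 RPKM in set-32 and 1005 to 1343 RPKM in WT, and these ranges do not overlap. The ratio of the means was 1.77 as deposited and 2.69 rescaled (2.60 to 2.79), from 5832 reads in set-32 and 6489 in WT. The triple mutant averaged 1028 RPKM, met-2 set-25 888 and hrde-1 1780, so that set-32 and hrde-1 were the highest libraries. A block on X, 5101001 to 5106000, added after seeing its level, had 1396 RPKM in set-32 and 837 RPKM in WT. Its order of libraries was the same at the top, with 1193 RPKM in hrde-1.

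**Figure D5:**
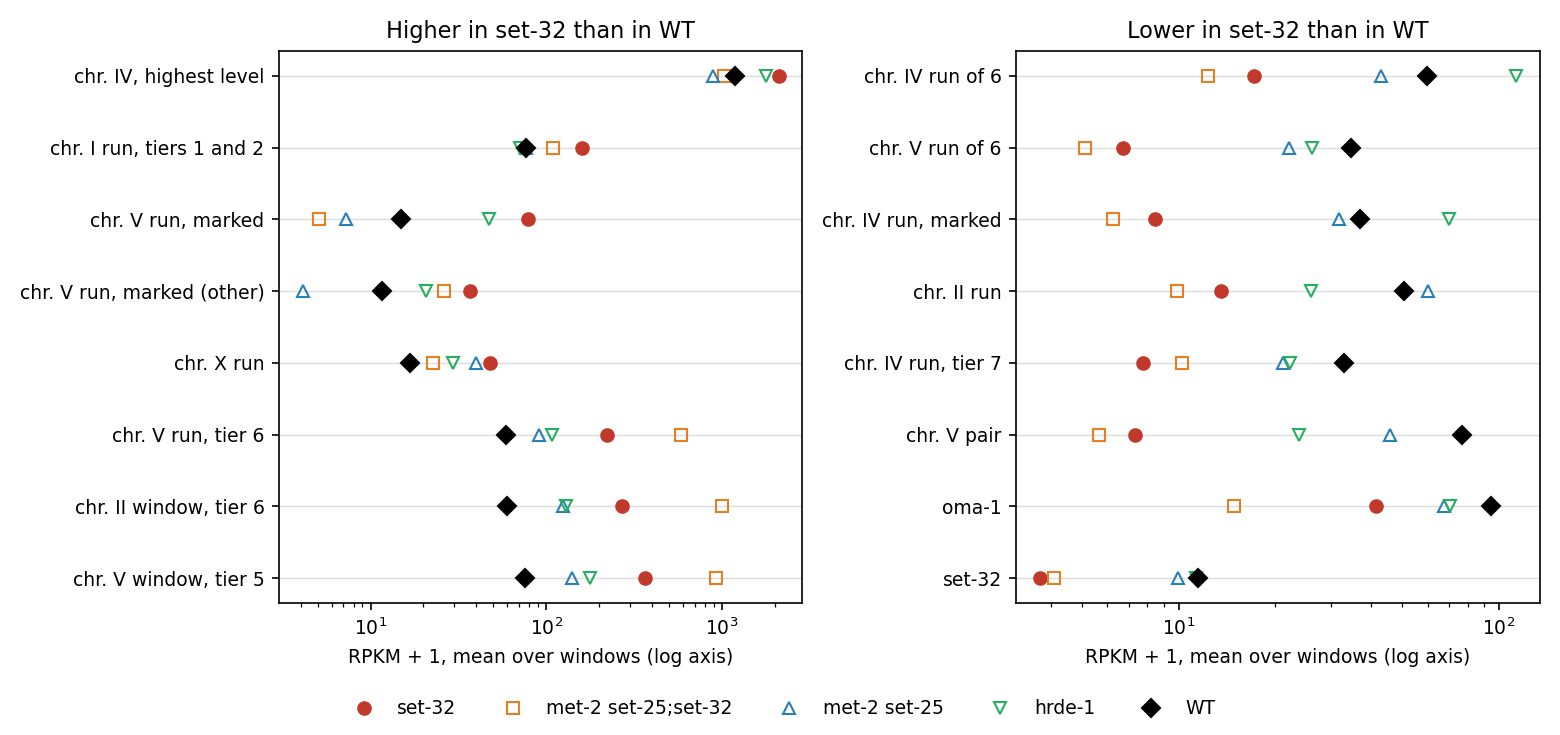
Mean level (RPKM + 1, log axis) in the 5 libraries at regions named in the text, the triple mutant being met-2 set-25;set-32, with those higher in set-32 than in WT on the left and those lower on the right. At the 3 lowest rows of the left panel, labelled tier 5 or tier 6, the triple mutant has 585 to 997 RPKM, above set-32, while at the other 5 rows it lies below set-32. At the runs of the right panel set-32 and the triple mutant lie left of the other 3 libraries.

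The longest runs lay in the lower list, which was also the larger, with 1351 windows against 388. The longest were 2 of 6 windows each. At IV 16835001 to 16841000, in tiers 4 and 5, set-32 had 5.39 to 30.5 RPKM and WT 31.9 to 103 RPKM, with means of 16.2 RPKM in set-32 and 58.8 RPKM in WT (rescaled ratio 0.418, 0.309 to 0.557). All 6 windows had whole reads. The triple mutant averaged 11.3 RPKM, met-2 set-25 41.8 and hrde-1 112.

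At V 20644001 to 20650000 the 6 windows, named as a run of lower calls, had 3.59 to 10.8 RPKM in set-32 and 24.9 to 43.8 RPKM in WT. Set-32 averaged 5.69 RPKM, the triple mutant 4.12, met-2 set-25 21.1, hrde-1 25.05 and WT 33.7, and the rescaled ratio of set-32 to WT was 0.257 (0.152 to 0.410). A run at II 8476001 to 8480000 averaged 12.6 RPKM in set-32 and 49.7 RPKM in WT, and a run at IV 11566001 to 11570000 averaged 6.74 RPKM in set-32 and 31.9 RPKM in WT. In each of these 4 runs the triple mutant was also below each of met-2 set-25, hrde-1 and WT.

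A lower run with marked windows lay on IV. At 2897001 to 2902000, in tiers 2 and 3 with 2 windows marked in both columns, set-32 averaged 7.43 RPKM, the triple mutant 5.25, met-2 set-25 30.8, hrde-1 68.96 and WT 35.9. The rescaled ratio of set-32 to WT was 0.315 (0.194 to 0.502). This run was named because it was called lower in set-32, and only 2 of its windows carry the marks for loss of H3K9me3. Both libraries with the set-32 deletion were lower than the others here. They also make up 1 library set, so allele and set cannot be told apart.

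Single lower windows rested on 1 to 4 reads in set-32. At V 10018001 to 10019000 the level was 1.80 RPKM in set-32 and 50.2 RPKM in WT, from 1 and 55 reads (rescaled ratio 0.0546, 0.00136 to 0.317). At I 9079001 to 9080000 it was 3.59 RPKM in set-32 and 77.5 RPKM in WT, and at II 14605001 to 14606000 it was 7.19 RPKM in set-32 and 65.7 RPKM in WT. Adjacent windows at V 12554001 to 12556000 had 5.39 and 7.19 RPKM in set-32 and 62.9 and 88.5 RPKM in WT, 7 reads against 166. The triple mutant was low at the 3 single windows as well, with 0, 3.09 and 3.09 RPKM against 34.3, 37.3 and 76.1 RPKM in met-2 set-25. The remaining smallest ratios, on I (1700001 and 10826001), III (5152001) and X (4504001 and 10569001), had 5.39 or 7.19 RPKM in set-32 and 53.3 to 60.2 RPKM in WT.

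The strict lists were then read in the triple mutant against met-2 set-25, the pair with no library in common. Over that pair, 3625 of 17959 windows that could be called were higher in the triple mutant (20.2%) and 2545 were lower (14.2%), both rescaled. Of the 401 windows higher in set-32, 312 could be called there, and 234 were higher in the triple mutant (75%) and 4 lower. Of the 1351 windows lower in set-32, 935 could be called, and 280 were lower in the triple mutant (29.9%) and 64 higher (6.84%). Read against the shares of 20.2% and 14.2% over all windows, windows higher in set-32 were more often higher in the triple mutant, and windows lower in set-32 more often lower.

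By tier, outside the rRNA genes, 18 of the 32 higher windows of tiers 1 to 3 that could be called there were higher in the triple mutant, beside 33.6% of all windows of these tiers. In tiers 5 to 7 the count was 160 of 207, beside 18.0% of all. What part the library set has in these shares was not tested.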

How the data were processed

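Pre-mRNA-seq libraries of set-32 and WT were compared, 1 per genotype, with those of the triple mutant, met-2 set-25 and hrde-1 beside them. The authors deposited RPKM per 1 kb window of ce6, from reads aligned with Bowtie 0.12.7 (submitters' processing notes), perfect matches only, a read with several matches being divided among them. The deposited table also holds a score per window, K9_tire, taken here as a grade of H3K9me3, and yes or no lists, but no fold changes or p-values. Value columns were matched to genotypes by the library codes in the study's list of libraries, and 0 columns of sample values were left unmatched.

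The RPKM of 1 read was estimated from the steps of the values. Between 78.8% and 80.6% of values above 0 were whole reads within 0.02 read. Intervals are exact (Clopper-Pearson, 95%) on rounded sums of reads. A library at 0 reads has 3 as its upper limit. Reads are not known to be independent molecules, so intervals cover counting error only. No p-value over windows was computed, as windows of a library do not replicate a genotype.

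Medians of log2((set-32 + 1)/(WT + 1)) were taken over windows of a mean of at least 5 RPKM, and the added 1 RPKM understates changes of low windows. Level classes had no minimum. Other pairs were rescaled in the same way. Named were windows of the study's oligo list, whose build is not stated and was taken as ce6, up to 10 largest and 10 smallest ratios among windows called under both scalings with at least 50 RPKM, the extreme ones of other chromosomes, the 5 longest runs in each direction, the 5 highest windows, and among marked windows the 8 highest in WT and the 5 largest and 5 smallest ratios. The windows, lists, classes and this rule were chosen with earlier results of these data known. Scripts were checked on simulated counts. Python 3.11.15, numpy 2.4.6, pandas 2.3.3, scipy 1.17.1 and matplotlib 3.10.9 were used. Coordinates are ce6, counted from 1, and no annotation of that build was used here, so windows other than those of the oligo list carry no gene name.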

Additional observations from a re-analysis of the deposited data

Results flagged for a closer look

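The 506 windows that the authors mark as misannotated enter no comparison, yet they held a signal. Their mean was 20.4 RPKM in set-32 and 11.6 RPKM in WT, while the medians were 1.115 RPKM in set-32 and 1.21 RPKM in WT, so a minority of windows carried the means. The highest in set-32 was chromosome I 4352001 to 4353000, where set-32 had 341.5 RPKM against 188 RPKM for WT. The triple mutant averaged 20.6 RPKM, met-2 set-25 14.0 and hrde-1 15.3. Without the 3 highest windows the mean was 18.5 RPKM in set-32 and 10.6 RPKM in WT. This difference has no replicate check.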

How the results depend on the processing

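Counts of called windows moved with the call rule. At a minimum of 10 RPKM in one of the libraries, higher and lower calls numbered 1058 and 8057 as deposited and 4255 and 3114 rescaled. With 50 RPKM they were 191 and 936 as deposited and 614 and 194 rescaled. A ratio of 1.5 gave 780 and 7727 as deposited and 4100 and 3099 rescaled, and a ratio of 4 gave 68 and 529 as deposited and 387 and 167 rescaled. Requiring the counting interval to leave out 1 left 670 lower calls rescaled. Rescaling on the total without rRNA gene windows (factor 1.33) gave 1183 higher calls.

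The share of higher windows that were also higher in the triple mutant was 55.1% at 10 RPKM, 93.4% at 50 RPKM and 83.7% at a ratio of 4. The share of lower windows also lower was 40.7% at 50 RPKM, 40.6% at a ratio of 1.5, 24.7% at a ratio of 4 and 41.4% with the rRNA-free total.

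Tiers 1 to 3 minus tier 7 was 0.35 with 5 RPKM added, 0.50 in windows of a mean of at least 20 RPKM and 0.50 where both libraries had whole reads. X minus autosomes was 0.10 with 5 RPKM added, 0.0921 with whole reads and 0.0918 against autosomal arms. The class above 100 RPKM minus that of 10 to 20 RPKM was 0.25 by hrde-1 level and 0.14 by WT level. Among 117 values of main results recomputed, 85 kept their size (counts within 1.5 times, medians within their interval over windows), 32 moved and 0 reversed. Reversed means a change of sign, which only the differences of medians could show. Counts, shares and the ratio at the set-32 locus could not reverse, so the absence of reversals says nothing about them. The rRNA genes in or out (chosen after seeing the data), misannotated windows kept in and other rescaling windows moved none of these main values. Set-32 holds 556568 reads, so windows near 20 RPKM rest on about 11.1 reads, and 1 library per genotype leaves the spread between animals unknown.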
